A study of Mus musculus with 16 samples.

Results

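The 9 genes described here are the EGF receptor family and its ligands as named in the deposited tables: 3 receptors (Egfr, Erbb2 and Erbb3) and 6 ligands (Areg, Ereg, Hbegf, Tgfa, Epgn and Btc), out of 22612 genes. They were chosen by name, and each gene was represented by its transcript with the most ribosome footprints over 8 Ribo-seq libraries. Epidermal cells of C57BL/6J mice were grown for 2 weeks as three-dimensional organoids that maintain hair follicle stem cells (HFSCs), with or without N1-acetylspermidine (N1-AcSpd), an acetylated polyamine, for 72 h, and then sorted. The sort gave α6+CD34- cells (progenitors) and α6+CD34+ cells (HFSCs), each untreated and treated, from 2 mice, so that each of the 4 groups held 2 samples (mouse 1 and mouse 2). Both RNA-seq and Ribo-seq, the sequencing of ribosome-protected fragments, were made from the same lysates, giving 8 libraries per assay. No genetic change was given in the labels, and the study's methods describe cell isolation from young mice of either sex with follicles in telogen, the resting phase of the hair cycle. The culture medium of all groups contained EGF and serum, so every cell measured had been supplied with a ligand of the EGF receptor.

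The EGF receptor is a membrane tyrosine kinase that forms dimers with itself or with its relatives once a ligand binds, and it then drives the RAS-MAPK and PI3K pathways. ERBB2 binds no known ligand and acts as a dimer partner, whereas ERBB3 binds neuregulins and has little kinase activity of its own. The ligands are made as membrane-anchored precursors that are released by proteases such as ADAM17, and in skin they act mainly between keratinocytes, where signaling through the receptor keeps basal cells proliferating.

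The ligand genes Epgn, Ereg, Areg and Btc are neighbors, and were the 4 protein-coding genes annotated in a stretch of 375531 bp on chromosome 5 (GRCm38, 91027464 to 91402994), in that order, with Btc on the minus strand and the others on the plus strand. Egfr and Erbb2 lie on chromosome 11, Erbb3 on chromosome 10 and Tgfa on chromosome 6. The promoters of Areg and Epgn are shown because the transcript levels of these neighbors were the most closely correlated of any pair of members over the libraries. The sequences are the 250 bases before the RefSeq gene start (GRCm38.p6, plus strand), chr5:91139349-91139598 for Areg and chr5:91027267-91027516 for Epgn, with matches to the letters searched in capitals.
Areg promoter: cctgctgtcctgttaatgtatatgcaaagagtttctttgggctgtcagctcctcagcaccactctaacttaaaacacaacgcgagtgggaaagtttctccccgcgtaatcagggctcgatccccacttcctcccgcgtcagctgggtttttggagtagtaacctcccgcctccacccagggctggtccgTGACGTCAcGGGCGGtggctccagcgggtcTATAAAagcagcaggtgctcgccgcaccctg
Epgn promoter: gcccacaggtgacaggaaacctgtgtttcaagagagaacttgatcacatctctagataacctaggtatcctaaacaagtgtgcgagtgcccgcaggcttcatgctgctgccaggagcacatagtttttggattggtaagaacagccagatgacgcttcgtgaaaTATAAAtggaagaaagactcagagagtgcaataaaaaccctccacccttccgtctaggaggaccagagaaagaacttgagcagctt
Of the 9 members, 6 were in the promoter table. Both strands were searched for a cAMP response element (TGACGTCA), a TATA box (TATAAA), a GC box (GGGCGG) and an AP-1 site (TGANTCA). The Areg window held a cAMP response element 61 bases, a GC box 52 bases and a TATA box 31 bases before the start, in 1.55%, 32.7% and 12.4%, respectively, of 32851 promoter windows of this length. The Epgn window held a TATA box 86 bases before the RefSeq start, which is 33 bases before the start of the gene in the GENCODE annotation. The AP-1 letters, found in 6.75% of windows, were in none of the 6 windows. These matches describe the sequence only.

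The RNA-seq libraries held 21612795 to 31524062 counts on the transcripts used, and the Ribo-seq libraries held 34475 to 268052. The limit that a count of 0 allows was taken as a count of 3. This equaled 0.0952 to 0.139 CPM in RNA-seq and 11.2 to 87.0 CPM in Ribo-seq. CPM are counts scaled to a common library size, as described with the processing. These limits used library sizes without the TMM adjustment given there, which the CPM of the members carry. With it, 3 footprints of Erbb2 in untreated progenitors of mouse 1 were 75.0 CPM, where the limit without it was 87.0 CPM. Of 6 HFSC markers, 4 passed the test as higher in the CD34+ cells (3 or 4 without any 1 library), and their summed level was 657 to 1331 CPM there against 270 to 450 CPM in progenitors. The HFSC markers include Cd34, on which the cells were sorted, so its difference follows from the sort and it is part of that sum. Basal keratinocyte markers, among them Itga6, which encodes the α6 used in the sort, summed to 40496 CPM or more in each library. Markers of other cell types summed to 1.07 to 13.6 CPM for fibroblasts (4 of 6 genes above 3 counts per library on average, Lum and Dcn not), 7.82 to 13.8 CPM for melanocytes (4 of 6, Tyr and Dct not), 0.316 to 3.22 CPM for immune cells (1 of 6) and 0.965 to 2.43 CPM for endothelium (2 of 4, Cdh5 and Kdr not). By the labels, samples of the same number came from the same mouse. The difference between mouse 1 and mouse 2 was positively correlated between 3 RNA-seq groups (r = 0.386 to 0.741 across genes), whereas that of the treated HFSCs ran the opposite way (r = -0.681 to -0.358). In Ribo-seq the values were 0.0623 to 0.0811 between those 3 groups and 0.0212 to 0.113 with the treated HFSCs. All were low, so they cannot show whether the numbers were exchanged. Whether the mouse numbers of the treated HFSCs were exchanged in RNA-seq is not known, and the values below follow the labels unless stated. For this reason the members' fits, and those of Nrg1, the markers and the pathway genes, were also calculated without each library.

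Epgn, which encodes epigen, was the most abundant member, and Ereg and Btc were the lowest. Levels between genes were compared as CPM per kb of coding sequence, on which the counts were made. Epgn stood at 164 ± 48.1 CPM per kb (mean ± s.d., n = 8 RNA-seq libraries), above 93.8% of the genes tested and 3.10 times the mean of Egfr, with no overlap between them. Egfr, which encodes the EGF receptor itself, followed at 52.9 ± 7.21 CPM per kb. Areg (35.004 ± 11.8), Erbb2 (31.9 ± 1.38), Erbb3 (30.1 ± 4.09) and Tgfa (28.3 ± 4.13), all in CPM per kb, formed a middle group whose neighbors overlapped, and the lowest Egfr library lay below the highest Areg library. For Tgfa alone, the transcript kept for its footprints, 4 in sum, was not the one with the most RNA-seq counts. Hbegf (17.97 ± 4.16 CPM per kb) was below Tgfa in each of the 8 libraries although their ranges overlapped. Ereg (1.37 ± 0.706 CPM per kb) and Btc (1.35 ± 0.657 CPM per kb) were 13 times or more below Hbegf and could not be ordered, with Ereg above Btc in 4 of 8 libraries.

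**Figure D1:**
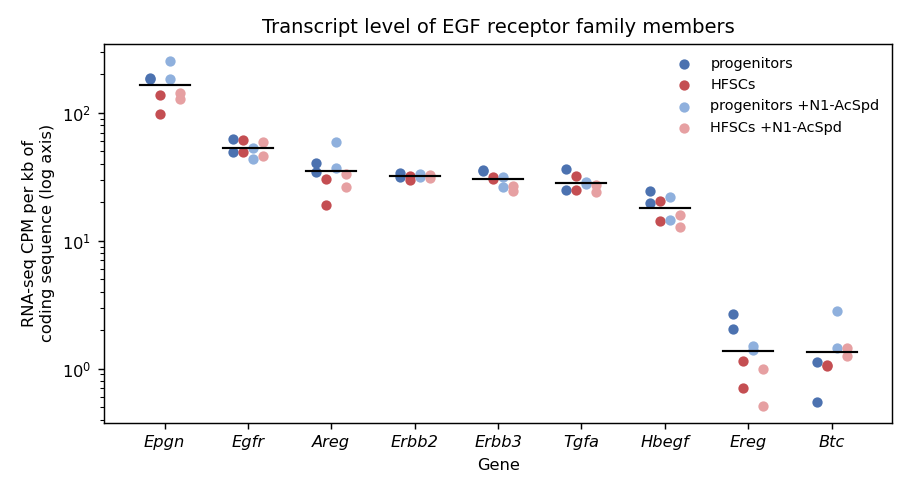
RNA-seq level of the 9 members in CPM per kb of coding sequence (log axis), with 1 point per library colored by group and a line at the mean of 8 libraries. Epgn lies above all other members, and Ereg and Btc lie below all others.

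The receptor genes Egfr and Erbb2 had similar transcript levels in both cell types. Egfr was at 179 and 228 CPM in untreated progenitors (mouse 1 and mouse 2) and 179 and 220 CPM in untreated HFSCs. With N1-AcSpd it was at 158 and 192 CPM in progenitors and 214 and 166 CPM in HFSCs. Mouse 2 was higher in 3 of the 4 groups, and the cell types overlapped. Erbb2 varied least, from 112 to 127 CPM over the 8 libraries. The log2 difference between HFSCs and progenitors, averaged over both treatments, was 0.046 for Egfr (95% interval -0.24 to 0.34) and -0.048 for Erbb2 (-0.21 to 0.11), with adjusted p = 0.890 and 0.778 by edgeR (quasi-likelihood test, p adjusted after Benjamini and Hochberg over 14224 genes). The sign of the Egfr value changed when single libraries were left out.

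Erbb3, which encodes the neuregulin-binding receptor, was the receptor that differed most, but it did not pass the test with the samples as labelled. In untreated cells it was at 140 and 144 CPM in progenitors and 126 and 121 CPM in HFSCs. With N1-AcSpd it was at 106 and 125 CPM in progenitors and 108 and 97.6 CPM in HFSCs. Each treated library was below the untreated library of the same mouse and cell type (4 of 4 pairs, also with the mouse numbers of the treated HFSCs exchanged), although the ranges overlapped between 121 and 125 CPM. The log2 difference for N1-AcSpd was -0.28 (s.e. 0.080) averaged over both cell types, -0.30 in progenitors and -0.26 in HFSCs (adjusted p = 0.135 for the average, edgeR; range over alternatives 0.0271 to 0.401, the lowest with a block for the mouse in which the numbers of the treated HFSCs were exchanged), and leaving out any 1 library, the treated HFSCs included, gave -0.34 to -0.22. For HFSCs against progenitors it was -0.19 (s.e. 0.080, adjusted p = 0.261), or -0.25 to -0.11 without any 1 library.

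The ligand Epgn was the member that passed the test between the cell types. In untreated cells it was at 85.8 and 83.0 CPM in progenitors and 62.4 and 44.4 CPM in HFSCs. With N1-AcSpd it was at 84.3 and 115 CPM in progenitors and 65.5 and 58.2 CPM in HFSCs. The 4 progenitor libraries were all above the 4 HFSC libraries, at 92.1 ± 15.5 against 57.6 ± 9.32 CPM (mean ± s.d., n = 4 libraries from 2 mice, each untreated and treated). The log2 difference was -0.68 (s.e. 0.133, adjusted p = 0.0297, edgeR), and -0.66 and -0.69 in untreated and treated cells taken alone (adjusted p = 0.261 and 0.186). With the mouse as a block the adjusted p was 0.0518, the highest of the alternatives that kept all libraries (0.000126 to 0.0518). The call was lost when any of 6 single libraries was left out (both untreated progenitor libraries, both treated HFSC libraries, and mouse 2 of the untreated HFSCs and of the treated progenitors), with adjusted p values up to 0.0994, while the log2 difference stayed between -0.81 and -0.54.

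Epgn was the only 1 of the 9 members called in this averaged comparison, beside 3.91% of all 14224 genes (556 genes, of which 300 were higher in HFSCs). An unadjusted p under 0.05 was met by 4 members, all lower in HFSCs (Epgn, Areg, Ereg and Erbb3), beside 18.1% of all genes at such a p and 8.88% at such a p and lower. In bulk samples fewer cells of a type and less RNA per cell cannot be told apart. Markers of late epidermal differentiation moved in the same direction as Epgn, with 5 of 8 passing the test as lower in HFSCs. Fewer passed when some single libraries were left out. The 8 markers summed to 473 to 1052 CPM in progenitors and 234 to 433 CPM in HFSCs. Their part in the result was not tested.

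**Figure D2:**
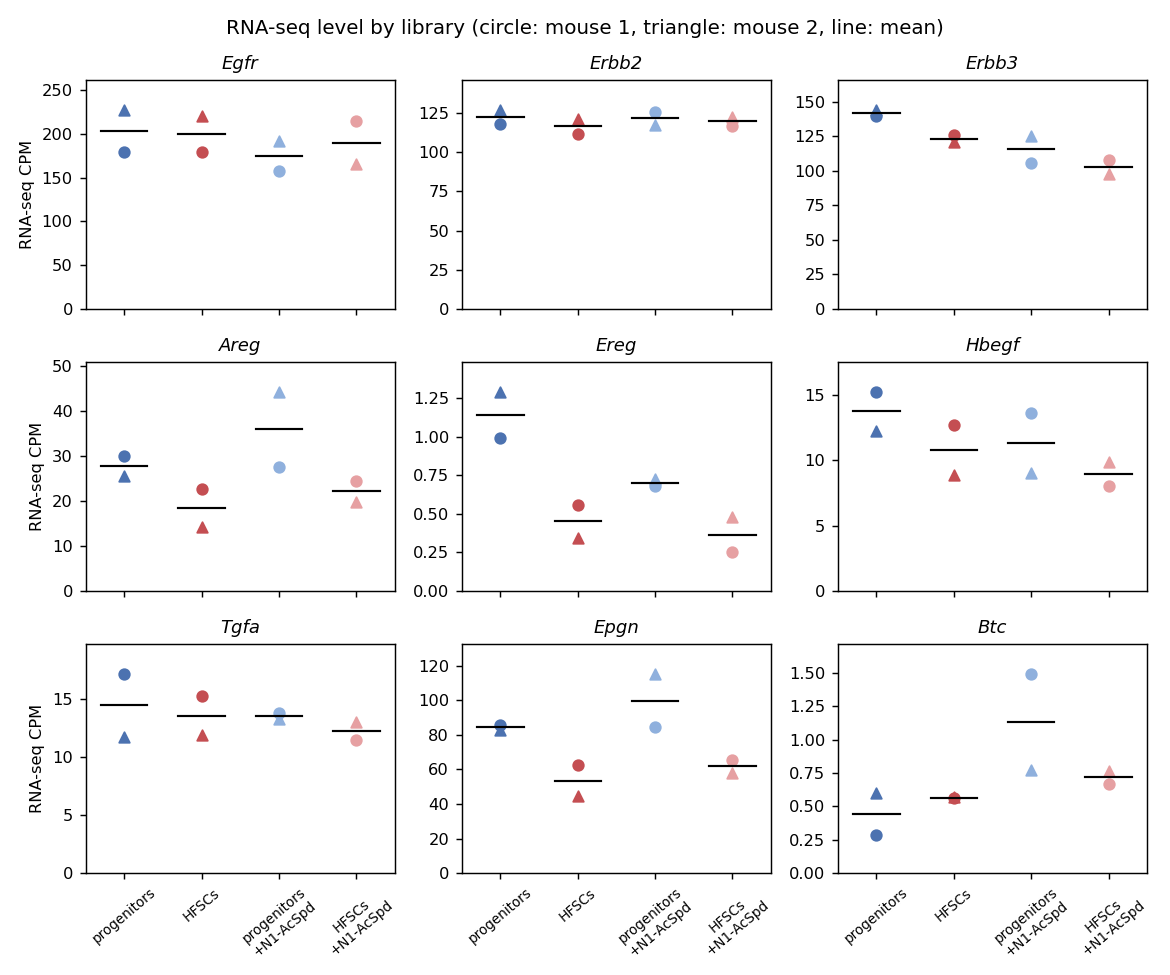
RNA-seq level (CPM, linear axes from 0) of each member by group, with circles for mouse 1, triangles for mouse 2 and lines at group means. Epgn, Areg and Ereg are higher in each progenitor library than in any HFSC library, whereas Egfr and Erbb2 overlap between the cell types.

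The neighboring ligands Areg and Ereg were ordered in the same way. Areg, which encodes amphiregulin, an autocrine growth factor of keratinocytes, was at 30.0 and 25.4 CPM in untreated progenitors and 22.7 and 14.3 CPM in untreated HFSCs. With N1-AcSpd it was at 27.5 and 44.2 CPM in progenitors and 24.5 and 19.7 CPM in HFSCs. The cell types did not overlap, the closest libraries being at 25.4 and 24.5 CPM. The log2 difference was -0.64 (s.e. 0.191, adjusted p = 0.111, edgeR). DESeq2 called it (adjusted p = 0.0175, 2 of 9 members beside 6.55% of all genes), as did edgeR without a minimum count (adjusted p = 0.0452, 2 of 9 members beside 5.42%), the range over alternatives being 0.0175 to 0.307. Leaving out any 1 library gave log2 differences of -0.82 to -0.43.

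Ereg, which encodes epiregulin, had 6 to 30 counts per library. It was at 0.990 and 1.29 CPM in untreated progenitors and 0.560 and 0.341 CPM in untreated HFSCs. With N1-AcSpd it was at 0.678 and 0.724 CPM in progenitors and 0.2498 and 0.480 CPM in HFSCs. These groups did not overlap in CPM either, although their unscaled counts did (6 to 18 in HFSCs and 15 to 30 in progenitors). The log2 difference was -1.11 (s.e. 0.372, adjusted p = 0.151), or -1.38 to -0.93 without any 1 library. Thus 3 of 9 members had HFSC libraries entirely below the progenitor libraries, as 4.42% of all genes did, and none had them entirely above. The fourth gene of the stretch, Btc, which encodes betacellulin, did not show this order, with a log2 difference of -0.16 (s.e. 0.385, adjusted p = 0.873) from 7 to 33 counts per library.

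Areg and Epgn followed each other across the libraries. Their log2 levels had a Pearson r of 0.973 over the 8 RNA-seq libraries, which share cultures and mice (0.951 to 0.987 without any 1 library), and treated progenitors of mouse 2 were the highest and untreated HFSCs of mouse 2 the lowest for both genes. In a search of 10177 genes whose RNA-seq counts averaged 100 or more, Epgn was the gene most like Areg, followed by Stam2 (r = 0.972), and the genes most like Epgn were Arf4 (r = 0.976) and Nabp1 (r = 0.974). Ereg was less like Epgn (r = 0.650, or 0.552 to 0.735 without any 1 library). The genes most alike to Egfr, Erbb2, Erbb3, Ereg, Hbegf and Btc had r between 0.912 and 0.984: Fosb and Selenoo for Egfr, Ube4a and Rars2 for Erbb2, Tnc and Polk for Erbb3, Pdlim1 and Arpc2 for Ereg, Sema3c and Robo1 for Hbegf, and Otulin and Hopx for Btc. With 8 points and this many genes searched, such values are a description only.

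**Figure D3:**
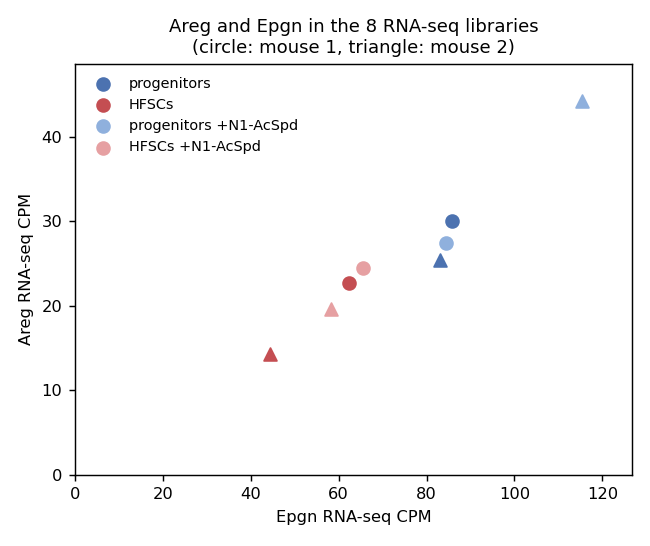
RNA-seq CPM of Areg against Epgn, 1 point per library, colored by group, with circles for mouse 1 and triangles for mouse 2. The 4 HFSC libraries lie at the lower left, at most at 65.5 CPM of Epgn and 24.5 CPM of Areg, and treated progenitors of mouse 2 at the upper right.

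Hbegf (chromosome 18) and Tgfa, which encode heparin-binding EGF-like growth factor and TGFα, overlapped between the cell types. Hbegf was at 15.3 and 12.3 CPM in untreated progenitors, 12.7 and 8.89 CPM in untreated HFSCs, 13.6 and 9.07 CPM in treated progenitors and 8.04 and 9.91 CPM in treated HFSCs. The log2 difference between HFSCs and progenitors was -0.34 (s.e. 0.180, adjusted p = 0.365), or -0.48 to -0.18 without any 1 library, and it was called only with the block for the mouse with exchanged numbers (adjusted p = 0.0450). Tgfa ranged from 11.5 to 17.2 CPM, and its log2 difference was -0.12 (s.e. 0.148, adjusted p = 0.729). Over all 9 members, 8 had a negative value, as 51.1% of all genes did, and the median was -0.19, beside -0.0057 over all genes.

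No member passed the test for N1-AcSpd averaged over both cell types (0 of 9 in edgeR and in DESeq2), beside 1.64% of all genes called by edgeR (233 genes, of which 170 were higher with N1-AcSpd) and 4.02% by DESeq2. With edgeR, fewer of all genes were called in each fit that left out 1 library. In edgeR 1 member, Erbb3, had an unadjusted p under 0.05, as 15.6% of all genes did. Epgn and Areg had positive values, with log2 differences of 0.23 (s.e. 0.133, adjusted p = 0.467) and 0.31 (s.e. 0.190, adjusted p = 0.488), and both were higher in 3 of 4 pairs of the same mouse and cell type, or in 2 of 4 with the mouse numbers of the treated HFSCs exchanged. Without any 1 library the values were 0.11 to 0.38 for Epgn and 0.13 to 0.52 for Areg. The values of Egfr (-0.15), Ereg (-0.49), Hbegf (-0.27), Tgfa (-0.12) and Erbb2 (0.014) had adjusted p values of 0.523 to 0.953. Egfr, Ereg and Hbegf were each lower in 3 of 4 pairs, or in 4 of 4 with those numbers exchanged, and without any 1 library their values were -0.25 to -0.046, -0.76 to -0.27 and -0.43 to -0.11.

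Btc had the largest positive value with N1-AcSpd, on few counts. It was at 0.289 and 0.602 CPM in untreated progenitors, 0.560 and 0.568 CPM in untreated HFSCs, 1.49 and 0.772 CPM in treated progenitors and 0.666 and 0.767 CPM in treated HFSCs. In CPM all 4 treated libraries were above the 4 untreated ones, as for 3.95% of all genes, although the unscaled counts overlapped (16 to 33 and 7 to 18). The log2 difference of 0.85 (s.e. 0.382) had an adjusted p of 0.330. All 8 late differentiation markers also had positive values with N1-AcSpd, and 3 of 8 were called. Fewer were called without most of the single libraries, and more without 1. Their sum was 321 to 1052 CPM in treated and 234 to 481 CPM in untreated libraries, so the ranges overlapped. Of 6 HFSC markers, 5 had negative values with N1-AcSpd and 1 was called lower, and all 5 fibroblast markers tested had positive values (median log2 0.93, none called) at a sum of at most 13.6 CPM. The part of these markers in any value of the members was not tested.

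In single comparisons, no member was called by edgeR with the samples as labelled. For HFSCs against progenitors 0 of 9 were called in untreated cells (0.148% of all genes) and 0 of 9 in treated cells (0.745%), with 2 members at an unadjusted p under 0.05 in each (9.58% and 11.2% of all genes). For N1-AcSpd 0 of 9 were called in progenitors (0.239% of all genes) and 0 of 9 in HFSCs (0.0%), with 2 and 1 members at an unadjusted p under 0.05 (8.87% and 7.73% of all genes). DESeq2 called 1 member, Epgn, in treated cells (adjusted p = 0.0259, with a range of 0.0259 to 0.531 over alternatives), beside 2.59% of all genes, and none between untreated cell types (1.82% of all genes) or for N1-AcSpd in progenitors (1.19%) or HFSCs (0.801%). The interaction of cell type and treatment was called for 0 of 9 members by either tool (0.0% of all genes in edgeR, with 0 members and 0.83% of all genes at an unadjusted p under 0.05), the smallest p being 0.226 for Btc.

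**Figure D4:**
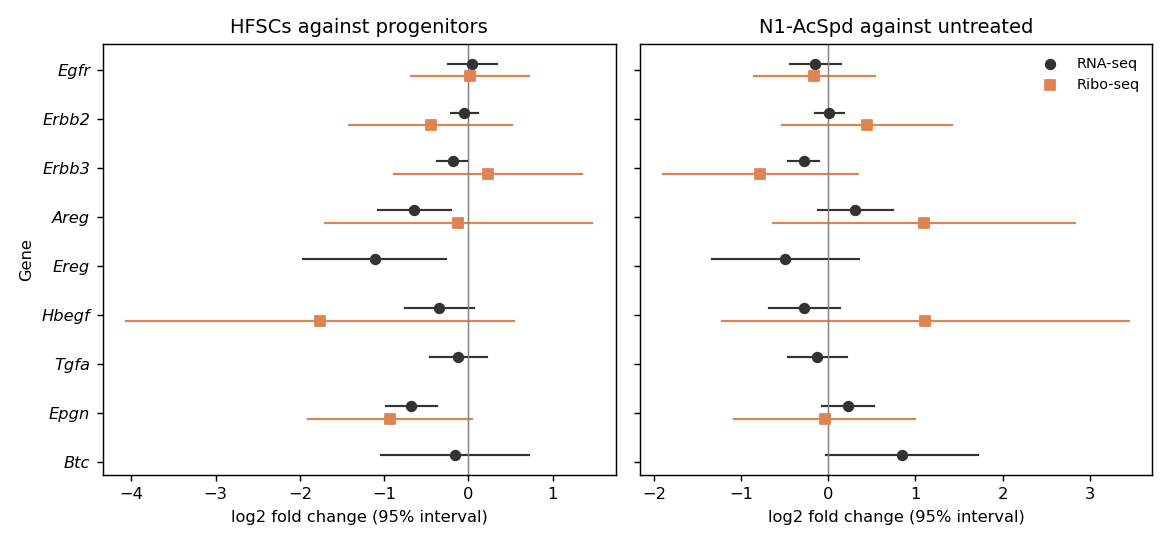
Log2 fold changes with 95% intervals from edgeR for HFSCs against progenitors (left) and N1-AcSpd against untreated (right), for RNA-seq (black) and, for the 6 members with at least 10 footprints, Ribo-seq (orange). The RNA-seq intervals of Epgn, Areg, Ereg and Erbb3 lie below 0 on the left, and each Ribo-seq interval includes 0.

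Ribosome footprints were sufficient for 6 of the 9 members. Egfr had 242 footprints over the 8 libraries, Epgn 109, Erbb2 95, Erbb3 73, Areg 26 and Hbegf 17. Ereg had 6, Tgfa 4 and Btc 0. For Btc, up to 3 footprints per library, or 11.2 to 87.0 CPM without the TMM adjustment, could thus not be detected. Each library held at least 2 footprints of each receptor.

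Epgn footprints had the same direction as its transcript. The counts were 7 and 52 in untreated progenitors, 4 and 8 in untreated HFSCs, 6 and 11 in treated progenitors, and 16 and 5 in treated HFSCs. As CPM these were 175 and 209, 69.7 and 63.3, 74.1 and 180, and 111 and 82.9. The cell types thus overlapped, as treated progenitors of mouse 1 lay below both treated HFSC libraries. The log2 difference between HFSCs and progenitors was -0.93 (s.e. 0.497, adjusted p = 1.00, edgeR; interval -1.91 to 0.041), or -1.18 to -0.55 without any 1 library.

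For Erbb3 all 4 treated libraries were below the untreated ones in footprints. It was at 125 and 92.4 CPM in untreated progenitors, 105 and 127 CPM in untreated HFSCs, 37.1 and 82.0 CPM in treated progenitors and 83.3 and 49.8 CPM in treated HFSCs, from 3 to 23 footprints per library. In this direction 1.53% of the 8440 genes tested did not overlap. The log2 difference was -0.78 with an interval from -1.90 to 0.34 (adjusted p = 1.00).

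No member was called in Ribo-seq for the cell types (0 of 6, beside 0.154% of all genes) or for N1-AcSpd (0 of 6, beside 0.0829%). None had an unadjusted p under 0.05, as 4.14% and 4.85% of all genes did. DESeq2 called 0 of 6 members in both, beside only 5 and 0 of all 8440 genes. Translational efficiency, the footprint change beyond the transcript change in 1 model of both assays, was called for 0 of 6 members in either comparison (0.0% of 8439 genes in both). Again 0 members had an unadjusted p under 0.05 (6.1% and 7.39% of all genes). DESeq2 also called 0 members, beside only 0 and 1 of all 8439 genes. The intervals were wide, from -1.12 to 0.60 for Epgn and -0.80 to 0.68 for Egfr between the cell types.

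Footprints were also compared with the number expected if each message took footprints in proportion to its share of RNA-seq counts. Epgn had 1.76 times the expected number (exact Poisson 95% interval 1.45 to 2.13), Egfr 1.40 times (1.23 to 1.58), Erbb2 0.922 times (0.746 to 1.13) and Erbb3 0.697 times (0.546 to 0.876). The median of 8383 genes with at least 10 expected footprints was 1.01, and Epgn stood above 77.3% of them, Egfr above 66.3% and Erbb3 above 33.8%. Lysates varied, from 0.855 to 2.39 for Epgn, 0.654 to 1.96 for Egfr, 0.328 to 1.52 for Erbb2 and 0.341 to 1.05 for Erbb3. Egfr was above Erbb2 in 6 of 8 lysates and above Erbb3 in 7, and Epgn was above Erbb2 in 7 and above Erbb3 in 8. Without the deepest Ribo-seq library, that of untreated progenitors of mouse 2, Epgn was at 1.43 (1.08 to 1.85) and Egfr at 1.34 (1.14 to 1.57), and both intervals overlapped that of Erbb2 (0.697 to 1.16) but not that of Erbb3 (0.555 to 0.986). Areg was at 1.25 (0.816 to 1.83), Hbegf at 1.86 (1.08 to 2.97, with 9.16 footprints expected) and Tgfa at 0.376 (0.102 to 0.963, with 4 footprints against 10.6 expected). Without that deepest library Tgfa was at 0.531 (0.145 to 1.36). Both Tgfa values are for its transcript with the most footprints, not that with the most RNA-seq counts. Ereg, at 9.71 (3.56 to 21.1), had 0.618 footprints expected, and 4 of its 6 came from 1 library. These intervals cover the counting error of the summed footprints only and leave out the spread between lysates and mice. Reads of PCR copies could not be removed, so even the counting error may be larger than shown.

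**Figure D5:**
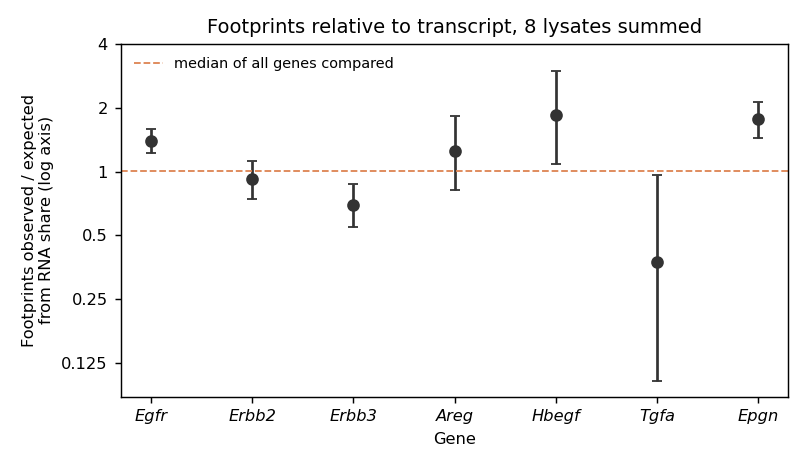
Footprints observed divided by those expected from the RNA-seq share, summed over 8 lysates (log axis), with exact Poisson 95% intervals and a dashed line at the median of 8383 genes. Epgn and Egfr lie above the line and Erbb3 below it.

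Among the receptor and ligand genes outside the 9, Nrg1 was the abundant one. Nrg1, a neuregulin that binds ERBB3 and ERBB4, was at 55.4 to 143 CPM, and its log2 difference between HFSCs and progenitors was -0.48 (s.e. 0.135, adjusted p = 0.0968), or -0.61 to -0.30 without any 1 library, and among these fits it was called only without the treated progenitors of mouse 1 (adjusted p = 0.0375). With N1-AcSpd its value was 0.44 (s.e. 0.135, adjusted p = 0.164), or 0.28 to 0.57 without any 1 library. It resembled Areg (r = 0.947, or 0.890 to 0.964 without any 1 library) and Epgn (r = 0.921, or 0.859 to 0.945) over the 8 libraries. Erbb4 and Nrg3 had 0 counts in each library, Nrg4 had 0 to 3, Egf had 8 to 22 and Nrg2 had 19 to 111.

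Of 59 other pathway genes in 6 lists, 56 were tested in RNA-seq, and 3 were called between the cell types, all in the list of 11 early response genes, beside 3.91% of all genes. Etv5, an ETS transcription factor downstream of receptor tyrosine kinases, was higher in HFSCs (log2 0.70, s.e. 0.148, adjusted p = 0.0356), at 33.9 ± 6.64 against 20.8 ± 3.20 CPM (n = 4 libraries from 2 mice). Phlda1 (log2 -0.64, adjusted p = 0.0242) and Ccnd1 (log2 -0.44, adjusted p = 0.0312), which encodes cyclin D1, were lower in HFSCs. None of the 3 was called in each fit that left out a library. Without any 1 library the log2 difference was 0.58 to 0.83 for Etv5 (called in 3 of 8 fits, adjusted p up to 0.135), -0.73 to -0.55 for Phlda1 (3 of 8, up to 0.0937) and -0.50 to -0.35 for Ccnd1 (1 of 8, up to 0.113). Without the treated HFSCs of mouse 1, 0 of the 56 genes were called (1.93% of all genes), and without those of mouse 2 the 2 called were Etv5 and Spred1 (2.82%). With all libraries kept, none of the 6 genes of ligand shedding, 11 of receptor restraint, 16 adaptors and kinases or 9 feedback genes was called. An unadjusted p under 0.05 was met by 1 of 6 shedding, 2 of 11 restraint and 3 of 16 adaptor and kinase genes, beside 18.1% of all genes. Of the 9 feedback genes 5 met it, a larger share. Over these 9 genes, 5 had positive and 4 had negative values. Some receptor restraint and feedback genes were called in fits that left out 1 library. With N1-AcSpd 0 of 56 were called by edgeR and 9 had an unadjusted p under 0.05 (15.6% of all genes had), with a median of -0.031 beside -0.015 over all genes.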

How the data were processed

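The deposited tables held counts per transcript for RNA-seq and Ribo-seq. Per the labels and the study's methods, the authors removed reads of rRNA and tRNA with Bowtie 1.2.3 and aligned the rest with STAR 2.7.3a to mm10 (GRCm38.p5); featureCounts is named in the submitters' processing notes. Ribo-seq fragments of a size-selected gel cut were amplified without molecular identifiers, and strand use in counting was not given in the sources used here. Of 4267 pairs of transcripts with the same coding sequence but different exons, 4251 had equal RNA-seq counts, so counts were taken to cover coding sequence. The authors' differential translation columns were not used.

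One transcript per gene was kept (22612 genes). Genes averaging 1 or more counts over the libraries were tested with edgeR 4.0.16 (TMM factors, quasi-likelihood test, group means of all 8 libraries of an assay), with Benjamini-Hochberg adjustment over all genes and a call at adjusted p under 0.05. Translational efficiency was the interaction of assay and contrast over 16 libraries. Tests of Ribo-seq and efficiency are given for members with at least 10 footprints. CPM is the count scaled by the TMM-adjusted library size (unadjusted for the limits of a count of 3), and correlations use log2 CPM. The scripts were tested on simulated data. Alternatives were DESeq2 1.42.0, RLE factors, other minimum counts, other transcripts, a block for the mouse and leaving out each library. Pairing came from the mouse identity in the labels, checked by the correlations between mouse differences. Named genes were the 9 members, Erbb4, Egf and Nrg1 to Nrg4, at most 3 called pathway genes per direction and contrast, and the 2 genes most like each member (for Tgfa these are not reported here). Members and lists were chosen with earlier results of these data known. Ereg, Erbb3 and Hbegf have no promoter shown. With 2 mice, p-values measure the spread between these samples.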

Additional observations from a re-analysis of the deposited data

How the results depend on the processing

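The Epgn call between the cell types, averaged over both treatments, was lost when most of the single libraries were left out. Each of these fits also called fewer of all genes, and the log2 difference of Epgn stayed between -0.81 and -0.54. The mouse as a replicate block gave 0 members called (3.12% of all genes). In that comparison DESeq2 called 2 (6.55% of all genes), edgeR without a minimum count called 2 (5.42%) and an unadjusted p under 0.05 was met by 4 (18.1%). In single comparisons an unadjusted p under 0.05 was met by 2 members (cell types, untreated), 2 (cell types, treated), 2 (N1-AcSpd, progenitors) and 1 (N1-AcSpd, HFSCs), and by 1 for N1-AcSpd averaged; DESeq2 called 1 between treated cell types (2.59% of all genes). The replicate block changed no other call of a member. An alternative chosen after seeing the data, the block with the numbers of the treated HFSC libraries exchanged, called 1 member between untreated cell types (Epgn; 5.29% of all genes), 1 between treated ones (Epgn; 6.35%), 3 between the averaged ones (Epgn, Areg and Hbegf; 13.7%) and 1 for N1-AcSpd averaged (Erbb3; 8.86%), where the block as labelled called 3.12% and 0.949% of all genes in the averaged comparisons. The cause was not tested.

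None of the values that changed sign was called in any setting. For the cell types averaged, Areg footprints (-0.12) became 0.042 with DESeq2 and 0.023 with the sum over transcripts, and Egfr efficiency (-0.057) became 0.044 with the block and 0.012 with the sum. For N1-AcSpd averaged, with the block, Egfr footprints became 0.015, Epgn footprints 0.0071 and Egfr efficiency 0.095. Leaving out each library gave ranges through 0. In RNA-seq between cell types these were Egfr -0.056 to 0.15, Tgfa -0.23 to 0.029 and Btc -0.38 to 0.16 (averaged) and Btc -0.095 to 0.97 (untreated). With N1-AcSpd they were Erbb2 -0.013 to 0.048 and Tgfa -0.24 to 0.025 (averaged), Areg -0.0016 to 0.67 (progenitors), and Areg -0.041 to 0.65, Ereg -0.84 to 0.15 and Epgn -0.015 to 0.50 (HFSCs). In footprints between cell types they were Egfr -0.20 to 0.75, Areg -1.04 to 0.42 and Hbegf -3.48 to 0.88, and with N1-AcSpd Egfr -0.50 to 0.53, Hbegf -1.54 to 2.27 and Epgn -0.43 to 0.20. In efficiency between cell types they were Egfr -0.23 to 0.65, Areg -0.61 to 1.09 and Hbegf -6.84 to 4.50, and with N1-AcSpd Egfr -0.40 to 0.56, Areg -0.23 to 1.45 and Hbegf -4.42 to 6.25. Values of single members were followed in the averaged comparisons and, for the 5 genes with an unadjusted p under 0.05 in some comparison (Erbb3, Areg, Ereg, Epgn and Btc), in the single ones. Under alternatives 912 of these kept their direction and side of the threshold, 8 passed it, 7 no longer did and 49 changed sign. Among the members tested in Ribo-seq, depth limited Areg (26 footprints) and Hbegf (17) most.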
